A study of Mus musculus with 8 samples.

Results

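Leak potassium channels of the K2P family (tandem pore domain potassium channels) were followed in the sensory neurons of the dorsal root ganglia (DRG) of mice. These ganglia lie beside the spinal cord and hold the cell bodies of the fibers that supply skin and muscle. The members were 10 genes taken by symbol, Kcnk1, Kcnk2, Kcnk3, Kcnk4, Kcnk5, Kcnk6, Kcnk9, Kcnk10, Kcnk13 and Kcnk18, out of 22609 gene symbols in the count files, and 8 of the 10 passed the filter on low counts. Kcnk5 was chosen by its female and male read counts in these same libraries, so its sex difference is a description and carries no test. The other 9 were listed by symbol as members of the same family. RNA was sequenced from 4 female and 4 male libraries, each made from lumbar ganglia of naive young adult C57BL/6J mice, the females in estrus. All animals had received WGA-Alexa Fluor 488, a fluorescent lectin carried back along axons, in hindpaw skin and thigh muscle, and labelled cells were sorted by flow cytometry, so neurons of skin and of muscle are mixed in every library. By the study's methods a library came from lumbar ganglia of the left and the right side. The labels name no animals, and p-values measure the spread between these libraries.

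K2P channels stay open near the resting potential and let potassium leak out of the cell, which sets that potential and the current needed to fire. Each subunit carries a pair of pore loops, and 2 subunits form a channel. In sensory neurons, members of the family are known for responses to stretch, temperature, pH, lipids, volatile anesthetics and intracellular calcium.

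The feature that defines the family can be read in the coding transcripts. Of the 10 members, all carried the 5 codons of the potassium selectivity filter in the first pore loop, and in each of them an intron fell at the same place, after base 7 of these 15 bases. The first-pore windows of the 8 detected members are shown because they are the shared element of genes that otherwise differ in length and exon number. They run 5′ to 3′ on the coding strand, in capitals the filter codons, from GENCODE M1 transcripts of NCBIM37 (mm9):
Kcnk1: gtgctctccACCACAGGCTATGGCcacacg
Kcnk2: gttatcacaACCATAGGATTTGGAaacatc
Kcnk10: gtcatcacaACCATAGGGTATGGGaatatt
Kcnk4: atcatcactACCATCGGCTATGGCaatata
Kcnk3: gtcatcaccACCATCGGCTATGGTcatgcg
Kcnk5: gtcatcaccACCATCGGTTATGGCaatgtg
Kcnk13: gtggtttctACCATAGGGTTTGGGatgaca
Kcnk18: gtgttcagcACAGTGGGTTATGGCcacatg
In Kcnk5 the window spans chr14:20964331-20965738 on the minus strand and is cut by an intron of 1378 bases between exons 2 and 3 of 5. The second pore loop of Kcnk5 lies unbroken in exon 4, at chr14:20963864-20963893:
Kcnk5: accatctccACCATTGGCTTTGGGgacttt
The second filter was found by the same codons in 8 of the 10 members. Kcnk1 and Kcnk6, both of the TWIK group, had no second match to these codons. Despite this shared pore, the genes were nearly distinct at read length among protein-coding transcripts. Of the 50-base stretches of their coding transcripts, none recurred in protein-coding transcripts of another gene for 8 members, and 0.266% did for Kcnk3 and 0.502% for Kcnk6. Noncoding transcripts and the rest of the genome were not searched. No exon of a member overlapped an exon of another gene in the annotation, so neither paralogs nor antisense genes shared their reads by position.

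Depth ranged from 4.80 to 7.33 M gene reads per library (M, 1e6 reads), so that 3 reads corresponded to 0.409 to 0.625 CPM (counts per 1e6 gene reads). Reads carried no molecular identifiers, and these floors cover counting error only. Neuronal identity was clear, with Tubb3 at 4320 to 6359 CPM and Rbfox3 at 220 to 272 CPM. Glial RNA was present in every library and differed by sex: the summed level of 10 glial markers was 10423 to 13567 CPM in females and 4155 to 10054 CPM in males, with positive log2 fold changes, female over male, for 10 of the 10 and an unadjusted edgeR p-value under 0.05 for 4 of them, where 7.11% of all genes had one. Myelinated neuron markers summed to 949.6 to 2185 CPM in females and 453 to 1057 CPM in males, with positive values for 7 of 7 and such a p-value for 3. Fibroblast markers summed to 76.2 to 123 CPM in females and 40.1 to 69.0 CPM in males, without overlap as for the glial markers, while the myelinated sums overlapped, and 3 of the 4 tested had such a p-value. Muscle markers did not overlap either, at 3.44 to 4.38 CPM in females and 0.740 to 2.23 CPM in males. These sums rest on few reads per library (Acta1 3 to 16, Ckm 2 to 12 and Myh4 0 to 2). Of the 3 muscle markers 1 was tested, and it had no such p-value. Peptidergic neuron markers went the other way, with sums of 4413 to 5771 CPM in females and 5270 to 7619 CPM in males, negative values for 4 of 5 and such a p-value for 3, all of these higher in males. In bulk libraries, fewer cells of a type and less RNA per cell cannot be told apart. Female replicate 4 stood apart from the other females, with a chi-square per degree of freedom of 31.8 to 48.2 against them, while no other pair of one sex exceeded 12.8.

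Kcnk5 encodes TASK-2, a channel of the TALK group that opens when the extracellular fluid becomes alkaline, known from kidney tubules and from brainstem neurons that sense carbon dioxide. The gene lies at chr14:20959280-21001004 on the minus strand, with 3364 exonic bases. Kcnk5 reads numbered 44, 31, 33 and 34 in female replicates 1 to 4 and 21, 21, 14 and 18 in male replicates 1 to 4. Its normalized levels were 6.05, 5.38, 6.87 and 5.73 CPM in the females and 2.87, 3.12, 2.31 and 2.66 CPM in the males. Every female library therefore lay above every male library, as was the case for 3% of all tested genes (every male library lay above every female library for 2.52%), and this is the difference for which the gene was chosen. Female libraries averaged 6.01 ± 0.640 and male libraries 2.74 ± 0.341 CPM of Kcnk5 (SD over 4 libraries each). The fitted log2 fold change, female over male, was 1.10 ± 0.22 (SE), a fold of 2.15. With each library left out in turn, the log2 fold change of Kcnk5 was 1.03 to 1.17, a range that the choice of a gene without overlap largely fixes. Without female replicate 4 it was 1.13, without male replicate 1, the library poorest in glial markers, it was 1.13, and with the glial score as a covariate it was 1.19. Every female glial score (7.70 to 7.89, the mean log2(CPM + 1) of the glial markers) lay above every male one (6.58 to 7.62), so sex and glial RNA cannot be told apart by that fit. Mural cell markers summed to 39.2 to 83.5 CPM in females and 71.2 to 97.1 CPM in males, and of the 2 tested, 1 was higher in males at an unadjusted edgeR p-value under 0.05. The part of the myelinated and peptidergic neuron, fibroblast, macrophage, muscle and mural cell markers in the difference was not tested.

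**Figure D1:**
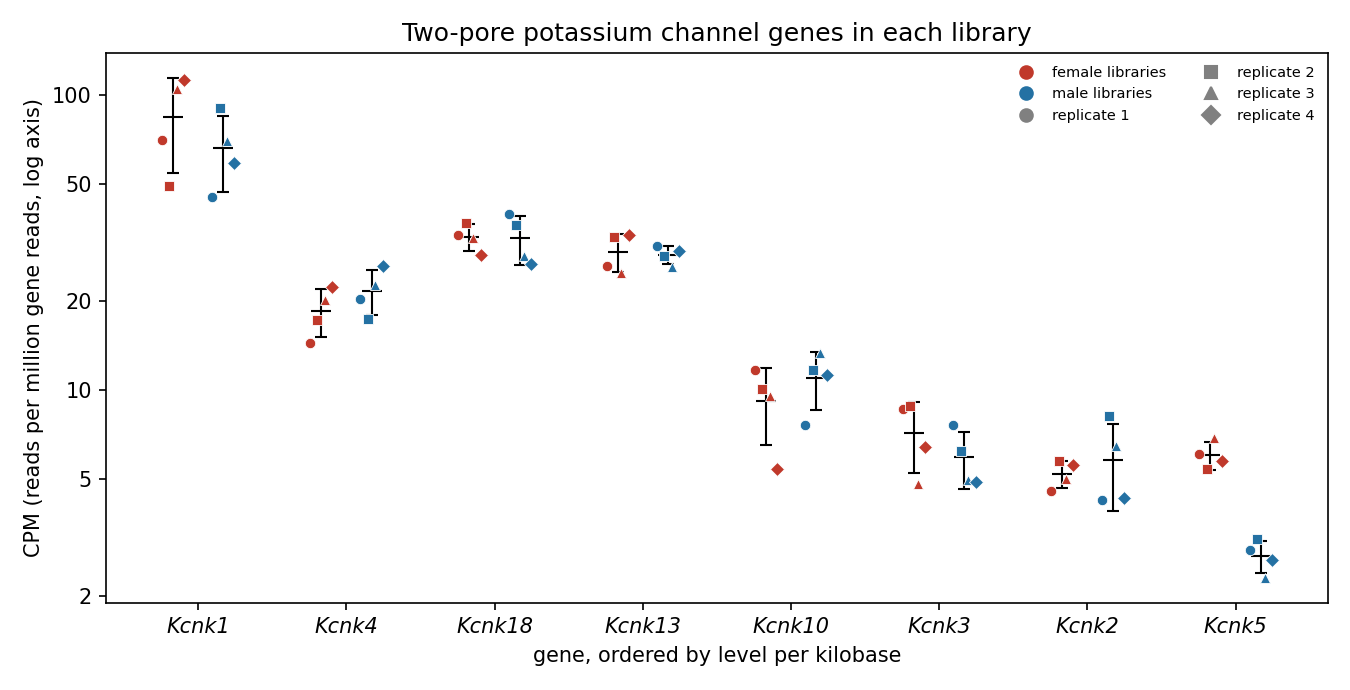
CPM on a log axis for the 8 detected genes of the 10 listed K2P members in each library. Red points are the 4 female and blue points the 4 male libraries, marker shape is the replicate, and black bars are mean ± SD. Kcnk5 is the one gene drawn whose 4 female points (5.38 to 6.87 CPM) all lie above its 4 male points (2.31 to 3.12 CPM).

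Levels were then compared between members, per kb of exon because longer transcripts collect more reads. Kcnk1 stood highest at 32.7 ± 11.0 CPM per kb (SD, n = 8), above the next listed gene in 8 of 8 libraries, with ranges that did not overlap. Kcnk4 (11.8 ± 2.19 CPM per kb), Kcnk18 (10.9 ± 1.52 CPM per kb) and Kcnk13 (9.37 ± 1.03 CPM per kb) formed a middle tier whose ranges overlapped, so neighbors within it did not differ beyond their spread. Kcnk13 exceeded Kcnk10 in 8 of 8 libraries without overlap. The lowest tier held Kcnk10 (3.09 ± 0.782 CPM per kb), Kcnk3 (1.72 ± 0.438), Kcnk2 (1.52 ± 0.367) and Kcnk5 (1.30 ± 0.538), and the range of each gene in it overlapped that of its neighbor. Within libraries, Kcnk10 exceeded Kcnk3 in 7 of 8, Kcnk3 exceeded Kcnk2 in 5 and Kcnk2 exceeded Kcnk5 in 4. As a restatement of the sex difference for which Kcnk5 was chosen, the level per kb of Kcnk5 was 1.01 to 1.48 times that of Kcnk2 in females and 0.386 to 0.729 times in males. Of the summed level per kb of the 10 members, Kcnk5 made up 2.39% ± 0.330 in the female and 1.19% ± 0.169 in the male libraries (SD over 4 each).

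**Figure D2:**
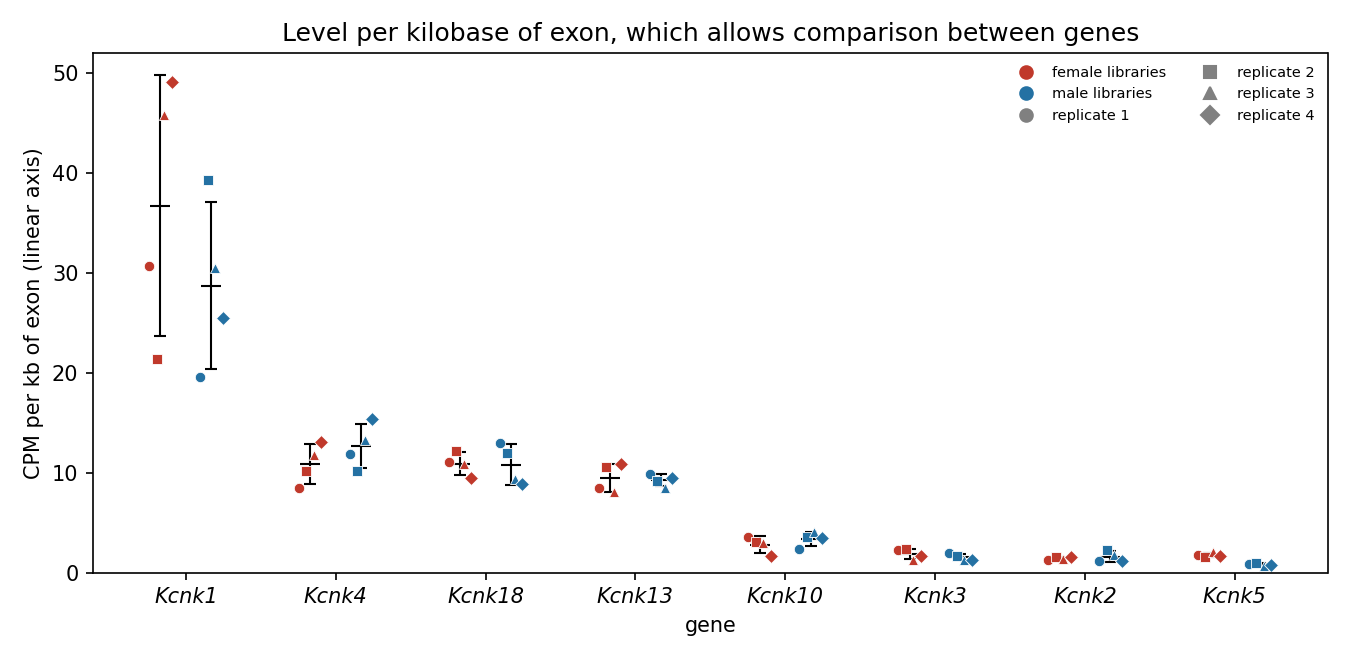
Level per kb of exon on a linear axis for the 8 detected listed genes. Red points are female and blue points male libraries, and black bars are mean ± SD (n = 4). Kcnk1, at 19.6 to 49.1 CPM per kb, lies above all others drawn, and Kcnk10, Kcnk3, Kcnk2 and Kcnk5 lie at 4.09 CPM per kb or less.

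The 7 other members that passed the filter were tested between the sexes in the edgeR fit of all genes. None had an adjusted p-value under 0.05, where 0.0879% of all tested genes did, and none had an unadjusted p-value under 0.05, where 7.11% of all genes did, shares at which few or no calls fall among 7 genes. DESeq2 and limma-voom also gave 0 members at either threshold. The levels of the sexes overlapped for all 7, where 5.52% of all genes did not overlap. Their median log2 fold change was -0.01, with 3 positive and 4 negative values, beside a median of 0.00 over all tested genes. The 95% intervals of the 7 differences reached at most 1.92-fold higher in females (Kcnk1), and their lowest end was at a fold of 0.559, female over male (Kcnk10). The narrowest interval was that of Kcnk13, from a fold of 0.812 to 1.26.

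**Figure D3:**
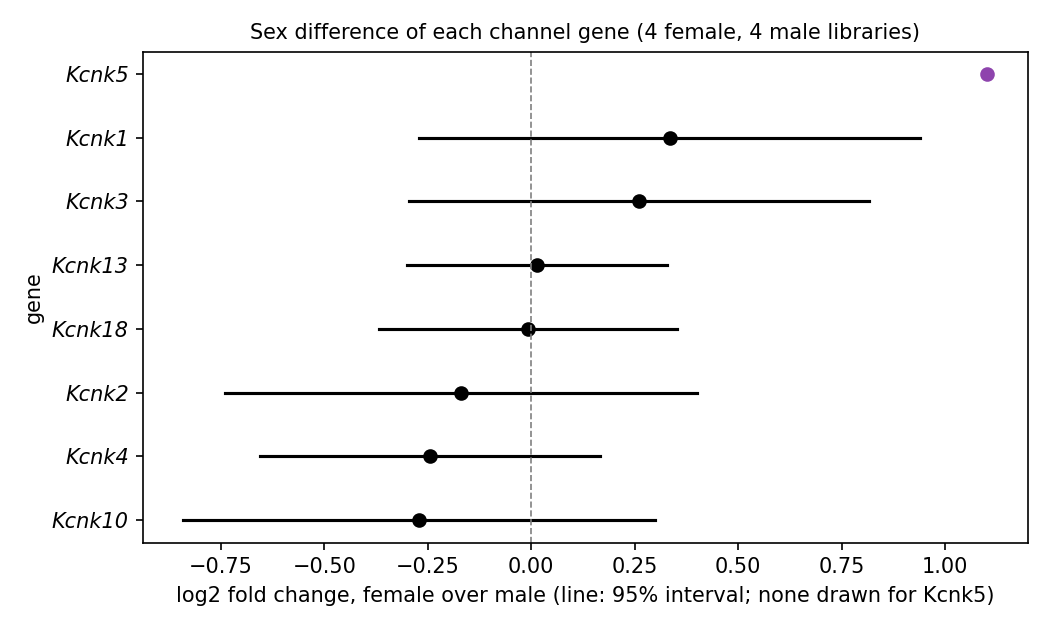
Log2 fold change, female over male, of the 8 detected listed genes. Points are edgeR estimates and lines their 95% intervals, with no interval drawn for Kcnk5 (purple), which was chosen for this difference. All 7 intervals include 0, and the point of Kcnk5 lies at 1.10.

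In the TWIK group, Kcnk1 encodes TWIK-1, a channel with weak currents at the cell surface. Kcnk1 (chr8:128519002-128554583) was at 70.5, 49.1, 105 and 113 CPM in female replicates 1 to 4 and at 45.0, 90.5, 70.2 and 58.7 CPM in male replicates 1 to 4. It was among the most variable members, and the sexes overlapped widely. Kcnk1 had a log2 fold change of 0.33 ± 0.27 (SE, edgeR adjusted p-value 0.805). With the glial score as a covariate it was -0.03. The lowest Kcnk1 level was in male replicate 1, which also held the lowest sums of glial (4155 CPM) and myelinated neuron markers (453 CPM). The next lowest was in female replicate 2, where these sums were 10423 and 1459 CPM, and their part in the spread of Kcnk1 was not tested. Kcnk6, which encodes TWIK-2, had 1 read in female replicate 2 and 0 reads in the other 7 libraries, and lay below the floor of 3 reads throughout.

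The TREK and TRAAK group opens with membrane stretch, warmth and polyunsaturated fatty acids. Kcnk4, encoding TRAAK (chr19:7000200-7009005), was at 14.4, 17.4, 20.2 and 22.4 CPM in female replicates 1 to 4 and at 20.3, 17.4, 22.8 and 26.3 CPM in male replicates 1 to 4. The 2 highest libraries for Kcnk4 were male and the lowest was female, but the sexes overlapped, and the log2 fold change was -0.25 ± 0.19 (SE, edgeR adjusted p-value 0.805). Kcnk10, encoding TREK-2 (chr12:99672204-99816150), was at 11.7, 10.1, 9.58 and 5.39 CPM in female replicates 1 to 4 and at 7.64, 11.7, 13.4 and 11.2 CPM in male replicates 1 to 4. Female replicate 4 held the lowest Kcnk10 level of all libraries, and its difference between the sexes rested partly on it: the log2 fold change was -0.27 ± 0.26 (SE, edgeR adjusted p-value 0.821) with all libraries and -0.08 without that library. Kcnk2, encoding TREK-1 (chr1:191031816-191167711), was at 4.54, 5.73, 5.00 and 5.56 CPM in female replicates 1 to 4 and at 4.23, 8.17, 6.44 and 4.29 CPM in male replicates 1 to 4. Male replicate 2 was the highest library for Kcnk2. The log2 fold change of Kcnk2 was -0.17 ± 0.26 (SE, edgeR adjusted p-value 0.885), and it turned to 0.05 without male replicate 2.

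TASK channels close when the extracellular fluid turns acidic. Kcnk3, encoding TASK-1 (chr5:30890543-30927643), was at 8.66, 8.85, 4.79 and 6.40 CPM in female replicates 1 to 4 and at 7.64, 6.24, 4.95 and 4.88 CPM in male replicates 1 to 4. Both the 2 highest libraries and the lowest one were female. The log2 fold change of Kcnk3 was 0.26 ± 0.25 (SE, edgeR adjusted p-value 0.823). Kcnk9, encoding TASK-3, had 1 read in female replicate 3, 1 read in male replicate 4 and 0 reads elsewhere, and was below the floor in all libraries.

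Kcnk13 encodes THIK-1, a channel inhibited by halothane and known from microglia. Kcnk13 (chr12:101202709-101300892) had the smallest coefficient of variation of the 8 detected members over all 8 libraries (11.0%), though not among the females alone (15.1%). It was at 26.4, 33.0, 25.0 and 33.7 CPM in female replicates 1 to 4 and at 30.8, 28.5, 26.3 and 29.6 CPM in male replicates 1 to 4. The log2 fold change was 0.01 ± 0.14 (SE, edgeR adjusted p-value 0.985). The 9 macrophage markers summed to 8.52 to 27.7 CPM in females and 3.27 to 9.91 CPM in males, and 2 of the 3 tested had an unadjusted edgeR p-value under 0.05, both higher in females. Ptprc, the pan-leukocyte gene, was at 0 to 2 reads per library. The part of macrophage RNA in the Kcnk13 level was not tested. Kcnk18 encodes TRESK, a channel switched on by calcium through calcineurin and prominent in sensory ganglia. Kcnk18 (chr19:59294138-59311860) was at 33.7, 37.0, 32.9 and 28.6 CPM in female replicates 1 to 4 and at 39.4, 36.4, 28.4 and 26.8 CPM in male replicates 1 to 4. Its log2 fold change was -0.01 ± 0.16 (SE, edgeR adjusted p-value 0.993), and the 95% interval ran from a fold of 0.775 to 1.28.

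**Figure D4:**
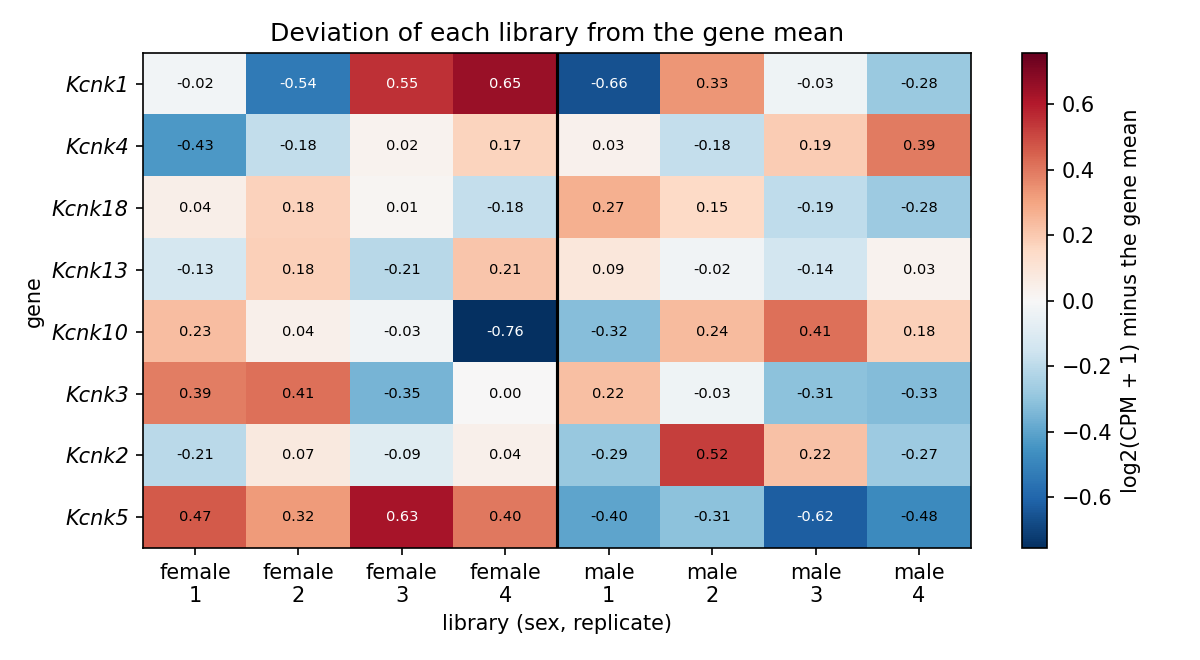
Each cell is log2(CPM + 1) of 1 library minus the mean of that gene over the 8 libraries. Rows are the 8 detected listed genes, columns the libraries, and the vertical line parts females from males. The row of Kcnk5 is positive in all 4 females and negative in all 4 males, while Kcnk10 reaches -0.76 in female replicate 4 and Kcnk1 -0.66 in male replicate 1.

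Summed over the 10 members, the level was 193 ± 26.1 CPM in females and 175 ± 19.4 CPM in males (SD, n = 4 each), with libraries from 158 to 221 CPM and the sexes overlapping. The plot of fold change against level sets the members beside all tested genes: the 7 tested members other than Kcnk5 lay between -0.27 and 0.33 on the log2 scale, and Kcnk5 lay at 1.10.

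**Figure D5:**
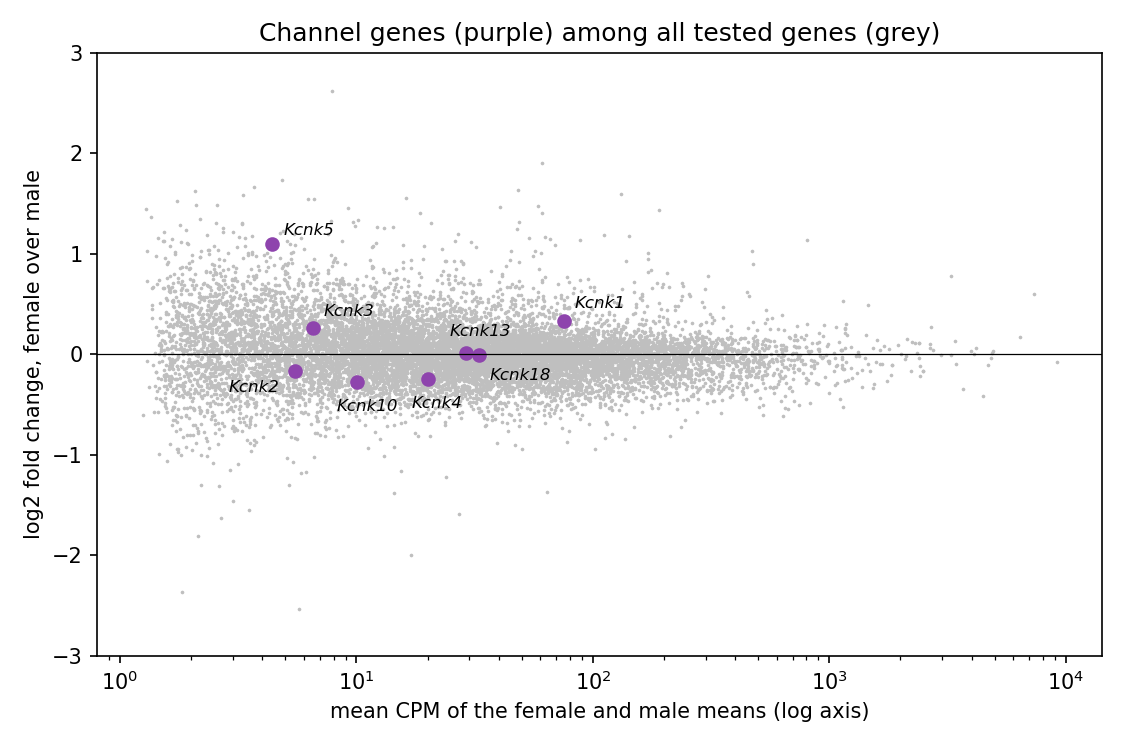
Log2 fold change, female over male, against mean CPM (log axis) for the tested genes (grey points), with the 8 detected listed K2P genes in purple. Beyond the axis limits of 3 lie 7 genes, which are not drawn. Kcnk5 lies at 1.10, and the other members lie between -0.27 and 0.33.

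The libraries in which Kcnk5 was high were compared with those of other genes. Profiles over the 8 libraries were compared by Pearson's r of log2(CPM + 1), among 9074 genes with a mean of at least 10 CPM. The closest were those of Xist (r = 0.961), the RNA of the inactive X chromosome, and Tsix (r = 0.956), its antisense partner. Reads counted for Tsix may be those of Xist where the genes overlap, since the strand option is not given. Next came Sesn1 (r = 0.936), Ttc30b (r = 0.933) and Nelf (r = 0.933). Kcnk5 was chosen for its sex difference in these libraries, so a high r with genes that separate the sexes follows from that choice. An r above 0.9 was reached by 15 genes and an r under -0.9 by 15 genes. Sesn1, which encodes the stress-response protein sestrin 1, was at 55.1 ± 0.595 CPM in females and 43.3 ± 2.98 CPM in males (SD, n = 4 each). When the mean of each sex was removed first, 0 of these 5 genes stayed among the closest 5. Their r with Kcnk5 was then -0.109 for Xist, -0.664 for Tsix, 0.271 for Sesn1, 0.519 for Ttc30b and 0.626 for Nelf. With the sex means kept, r of the other members with Kcnk5 ranged from -0.486 for Kcnk4 to 0.435 for Kcnk1.

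Genes that act on the leak conductance were taken from a list of sodium leak channel subunits, 14-3-3 proteins, trafficking and scaffold partners, calcineurin subunits and MARK kinases. Of 27 listed genes with a row, 25 passed the filter, and none had an adjusted or an unadjusted edgeR p-value under 0.05, with 0 also in DESeq2 and limma-voom, beside 0.0879% and 7.11% of all tested genes. A count of 0 among 25 genes lies near those shares. Their median log2 fold change was 0.03, with 13 positive and 12 negative values. The largest fold changes were those of Nalcn, the pore of the sodium leak channel (-0.55 ± 0.35 SE, adjusted p-value 0.775), Ppp3r1, the regulatory subunit of calcineurin (-0.42 ± 0.21 SE, 0.714), and Pld2, a phospholipase D that acts on TREK channels (0.39 ± 0.26 SE, 0.775). Nalcn was at 25.3 CPM on average in females and 36.7 CPM in males. Single libraries moved these values: without female replicate 1 Nalcn was at -0.87 and Pld2 at 0.62, and without female replicate 4 Ppp3r1 was at -0.22.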

How the data were processed

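RNA of sorted DRG neurons was amplified with oligo-dT by SMART-seq2 and read as 50-base single reads. The deposited counts are raw reads per gene symbol, which the authors made by aligning to mm9 with TopHat2 and counting with HTSeq-count. Versions, annotation release and strand option are not given in the sources used here. The 5 summary lines were left out of all totals. CPM used the sum over genes, and exon lengths came from GENCODE M1 of NCBIM37. Quasi-likelihood F-tests in edgeR 4.0.16 (R 4.3.3) compared the sexes, with TMM scaling, default expression filter, sex alone, and Benjamini-Hochberg adjustment over 12518 genes. This fit was tested on simulated data with known changes. DESeq2 1.42.0, limma-voom (limma 3.58.1), other scalings and filters, a glial covariate, a replicate block and leaving out each library were alternatives. Named genes were the members, the 5 genes closest to Kcnk5, and the partner genes with an unadjusted p-value under 0.05 or else the 3 with the largest fold change. Members and lists were chosen with earlier results of these data known. Libraries of one sex were not duplicates (chi-square per degree of freedom at least 2.89).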

Additional observations from a re-analysis of the deposited data

How the results depend on the processing

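Limits come from depth and from 4 libraries per sex: Kcnk5 rests on 14 to 44 reads per library. No alternative brought a member other than Kcnk5 under an adjusted or an unadjusted p-value of 0.05, or a partner gene under an adjusted one. For Kcnk5, chosen for libraries that do not overlap, the choice fixes the sign when libraries are left out. The log2 fold change of Kcnk18 was 0.013 on library size alone, 0.0018 with limma-voom, 0.0036 with the replicate block and 0.21 with the glial covariate, and that of Kcnk1, 0.33 without it, -0.029 with the glial covariate. The same covariate moved Kcnk2 to -0.55, Kcnk10 to -0.64 and Kcnk3 to 0.60, in their original directions. The cause was not tested. Without 1 library at a time, log2 fold changes ran from -0.29 to 0.048 for Kcnk2, from -0.050 to 0.077 for Kcnk13 and from -0.090 to 0.10 for Kcnk18, and without a change of sign from 0.17 (without female replicate 4) to 0.53 (without male replicate 2) for Kcnk1, from 0.14 (without female replicate 2) to 0.42 (without male replicate 1) for Kcnk3, from -0.35 (without female replicate 4) to -0.13 (without female replicate 1) for Kcnk4 and from -0.41 to -0.08 for Kcnk10. The level of Kcnk10 rose to 3.98 CPM per kb with the longest transcript, since that is shorter than its exon union. With sex means removed, 0 of the 5 genes closest to Kcnk5 stayed. Partner genes with an unadjusted p-value under 0.05 numbered 2 with the replicate block, 1 with the glial covariate, 3 without female replicate 1 (Nalcn, Ywhah and Pld2) and 4 without female replicate 4 (Ywhag, Ywhaz, Psd and Ppp3r1), against 0 with all libraries. The share of all genes at that threshold was 6.97% with the replicate block, 2.44% with the glial covariate, 9.58% without female replicate 1 and 11.4% without female replicate 4. Over all genes, 11 passed the adjusted threshold, 44 with DESeq2, 84 without female replicate 1, 7 without male replicate 4, 6 with the replicate block and 4 with the glial covariate. Libraries with the same number did not deviate together more than other pairs (correlations of -0.117 to 0.151, against -0.259 to 0.160). The labels do not say whether libraries of one number shared a batch, and these correlations cannot exclude it. With the block, the log2 fold change of Kcnk5 was 1.10.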

Other observations

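The files also hold the 4 K2P genes outside the list. Kcnk12, which encodes THIK-2, a close relative of THIK-1 that is largely silent when expressed alone, was at 16.0 ± 3.72 CPM per kb (SD, n = 8), from 10.2 to 21.5 CPM per kb. This range overlapped those of Kcnk4 and Kcnk1, and in female replicate 2 and male replicate 1 Kcnk12 lay just above Kcnk1 (21.5 against 21.3 and 20.4 against 19.6 CPM per kb). It was at 19.7, 41.6, 26.7 and 27.5 CPM in female replicates 1 to 4 and at 39.6, 31.6, 27.6 and 33.0 CPM in male replicates 1 to 4, with a log2 fold change of -0.21 ± 0.22 (SE, edgeR adjusted p-value 0.832). Its 2 highest libraries, female replicate 2 and male replicate 1, were the 2 lowest for Kcnk1. Kcnk7 had 1 to 5 reads per library, Kcnk16 0 to 5 and Kcnk15 0 to 1, and none of the 3 passed the filter. In all 4 of these genes the intron in the first pore loop also fell after base 7 of the 15 filter bases.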
